A study of Mus musculus with 2 samples.

Results

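The genes described here are 10 genes of the myelin surface and of the Nogo receptor system, out of 51826 genes listed for mouse spinal cord. They were taken by name: the surface proteins Mag, Mog and Opalin, the ligand Rtn4, the receptors Rtn4r, Rtn4rl1 and Rtn4rl2, and the co-receptors Lingo1, Tnfrsf19 and Ngfr. All 10 were found, together with 37 of their transcripts. RNA came from whole spinal cord at postnatal day 7, in mice of the C57BL/6 strain. One library was from wild-type mice (WT). The other was from mice with the genotype Olig1-Cre;Secisbp2l-floxed(Ex3), called cKO here, in which a Cre driven by Olig1, active mainly in the oligodendrocyte lineage, acts on a Secisbp2l allele with a floxed exon. The number of animals behind each library is not in the labels, and with 1 library per group no difference below has a replicate check and no p-value is given.

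Oligodendrocytes wrap axons of the spinal cord in myelin. Mag, the myelin-associated glycoprotein, sits on the innermost layer of the sheath facing the axon, while Mog, myelin oligodendrocyte glycoprotein, lies on the outermost surface and Opalin is a small transmembrane glycoprotein of oligodendrocytes. Mag and the reticulon Nogo, which Rtn4 encodes, are also known as inhibitors of axon growth. Both bind the Nogo receptor, the product of Rtn4r, a protein held on the neuronal surface by a lipid anchor that signals through partners such as Lingo1, Tnfrsf19 (also called Troy) and the neurotrophin receptor p75 (Ngfr) to the GTPase RhoA.

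Depth was 42875143 estimated counts for WT and 55179026 for cKO, and a fragment gave about 2 counts. Levels of a gene are given as estimated counts, as counts scaled to a library of 1000000 (CPM), or as the authors' length-corrected transcript level to the same total (TPM), and only TPM was used to compare different genes. Ratios are log2 of CPM in cKO over WT, with a 95% exact (Clopper-Pearson) interval that covers counting error only. For the targeted gene Secisbp2l the level was 588 CPM in the WT library against 466 CPM in the cKO library (log2 ratio -0.34), in values that estimate whole transcripts and do not isolate the floxed exon. Olig1, the gene that drives the Cre and itself a transcription factor of the lineage, stood at 388 CPM for WT and 176 CPM for cKO, a log2 ratio of -1.14 (interval -1.20 to -1.09). The WT label names no Cre. The Cre, the Olig1 level and the Secisbp2l allele therefore cannot be told apart in any difference below. Xist had 35182 counts in WT and 13 in cKO, so genotype and the sex of the animals cannot be told apart, although none of the 10 genes lies on a sex chromosome. Markers of neurons, oligodendrocytes, their precursors, astrocytes, microglia, vessels, Schwann cells, meninges, ependyma and blood were all present in both libraries. Of the sensory ganglion markers, Prdm12 had 7 counts in WT and 0 in cKO, both near the floor. The 5 measured markers of that list had a median log2 ratio of -0.13, with 3 below 0 and 2 above.

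The myelin surface genes were lower in the cKO library, while the 6 receptor and co-receptor genes had log2 ratios between 0.03 and 0.43. A gene was counted as lower or higher where the ratio was at least 1.5-fold and its interval left out a ratio of 1. By this rule 3 of the 10 genes were lower, against 3.42% of the 15917 measured genes, those with a mean level of 1 CPM or more. None of the 10 was higher (0 of 10, against 2.46% of measured genes). The 3 lower genes were Mag, Mog and Opalin. With Rtn4 they had 4 of 4 log2 ratios below 0 and a median of -0.79, while the receptors and co-receptors had 6 of 6 above 0 and a median of 0.21. Of all measured genes, 47.7% had a ratio below 0. The intervals of Tnfrsf19 and Rtn4rl2 included 0, so the sign of these ratios is within counting error. The median over all 10 was 0.05, and that over all measured genes was 0.01, with quartiles of -0.14 and 0.15. In bulk tissue, fewer cells of a type and less RNA per cell cannot be told apart.

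**Figure D1:**
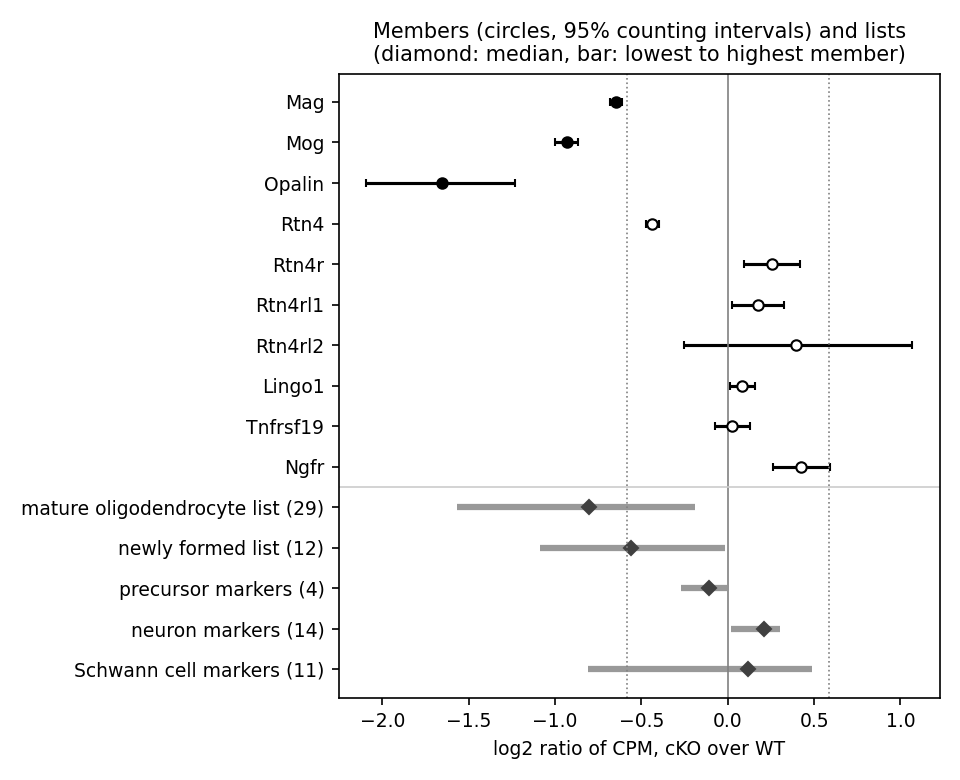
The log2 ratio of CPM in cKO over WT is on the x axis, with the 10 genes as circles (filled where past the 1.5-fold rule) and 95% counting intervals as bars, and with 5 gene lists below as a median (diamond) and a range (grey bar). Dotted lines mark 1.5-fold either way, and Mag, Mog and Opalin are the genes that lie beyond them on the lower side.

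The order of levels put the surface proteins Mag and Mog and the ligand Rtn4 at the top, and the surface protein Opalin near the bottom. In WT, Mag was the most abundant of the 10 at 917 TPM, followed by Mog at 285 TPM and Rtn4 at 273 TPM. The counting intervals of Mog (277 to 293) and Rtn4 (268 to 278) overlapped, so their order in WT is within counting error. Lingo1 stood next, at 107 TPM. Tnfrsf19 (32.8 TPM) and Rtn4r (28.6 TPM) had intervals that met, at 31.1 to 34.6 and 26.3 to 31.2. Below them stood Rtn4rl1 (18.0 TPM), Ngfr (14.7 TPM), Opalin (9.10 TPM) and Rtn4rl2 (2.78 TPM). In the cKO library Mag was again first, at 598 TPM. Rtn4 (206 TPM) stood above Mog (153 TPM) there, with intervals that did not overlap (202 to 210 and 148 to 158). Lingo1 followed Mog, at 115 TPM. Rtn4r (35.1 TPM) and Tnfrsf19 (34.4 TPM) had overlapping intervals in cKO, as had Rtn4rl1 (20.8 TPM) and Ngfr (20.2 TPM). Opalin, at 2.96 TPM, had the lowest estimate in cKO, with an interval (2.28 to 3.77) that overlapped that of Rtn4rl2 (3.60 TPM, 2.71 to 4.69).

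**Figure D2:**
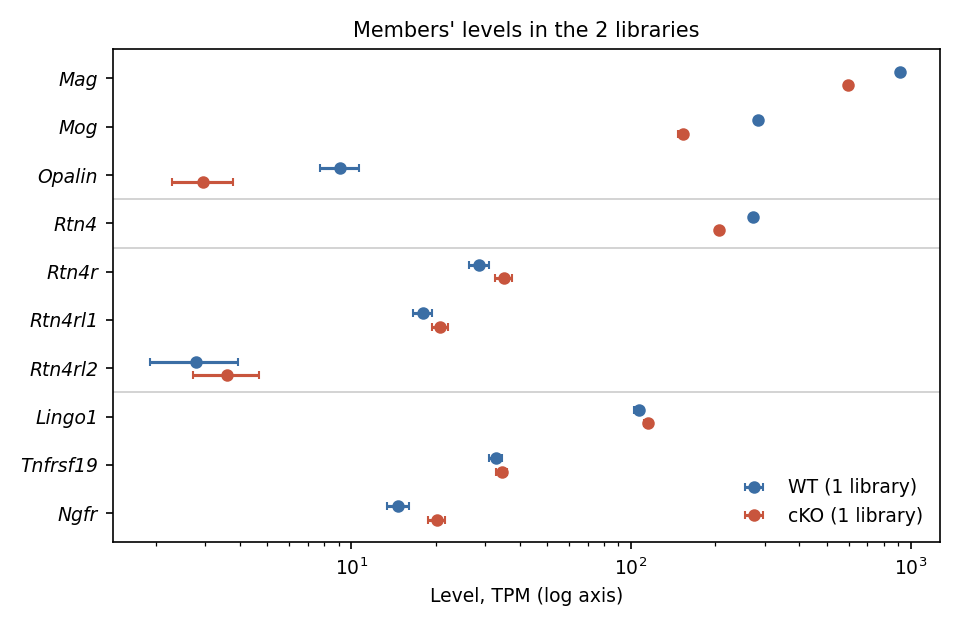
Each gene's level in TPM is on a logarithmic x axis, in WT (blue) and cKO (red), 1 library each, with 95% Poisson counting intervals as bars, and the genes are grouped into surface proteins, ligand, receptors and co-receptors. Mag lies highest in both libraries, and the points of Opalin are the farthest apart.

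Opalin showed the largest difference of the 10 genes. Its gene (ENSMUSG00000050121) lies on the minus strand of chromosome 19, from 41062474 to 41077113 in GRCm38, and a single transcript, Opalin-201, of 6 exons and 143 coding residues, is listed. Opalin had 321 counts in WT and 131 in cKO, or 7.48 and 2.38 CPM. The log2 ratio was -1.66 (interval -2.09 to -1.23), which is 3.15-fold lower in the cKO library. Only 0.390% of measured genes had a lower ratio. The cKO value rests on about 66 fragments.

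Mog differed by less, on far more counts. The gene (ENSMUSG00000076439) lies on the minus strand of chromosome 17, from 37010743 to 37023398, near the major histocompatibility genes. Mog had 9270 counts in WT and 6246 in cKO, or 216 and 113 CPM, 1.91-fold lower in cKO (log2 ratio -0.93, interval -0.998 to -0.866). A lower ratio was found for 1.31% of measured genes. Transcript Mog-201, which encodes 247 residues, held 99.9% of the gene's counts in each library.

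Mag, the most abundant of the 10, showed the smallest of the 3 differences. The gene (ENSMUSG00000036634) lies on the minus strand of chromosome 7, from 30899176 to 30914873. Mag had 30438 counts in WT and 25008 in cKO, or 709 and 453 CPM, 1.56-fold lower (log2 ratio -0.65, interval -0.68 to -0.61). A lower ratio was found for 3.13% of measured genes. The interval of Mag did not overlap that of Mog, nor that of Mog overlap that of Opalin, so the order of the 3 ratios is beyond counting error.

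The 3 surface genes were set beside other genes of the lineage. Of 29 genes of mature oligodendrocytes and myelin, without the 3, 21 were lower by the rule, 0 were higher and the median log2 ratio was -0.80. Fa2h (-1.57), Mobp (-1.24) and Ugt8a (-1.24) were among the members of lowest ratio, where Fa2h and Ugt8a encode enzymes of the galactolipids of myelin. On the log2 scale, the difference from that median was -0.13 for Mog, -0.85 for Opalin and 0.16 for Mag. Of 12 newly formed oligodendrocyte genes, 6 were lower and 0 higher, with a median of -0.56. Of 12 precursor genes, 2 were lower and 0 higher, with a median of -0.15. The 2 were Gpr17 (-0.64), a receptor of committed precursors, and Sox10 (-0.59), a transcription factor of the whole lineage. Gpr17 is in both lists and is also counted among the 6 lower newly formed genes. Sox10 lay close to the limit and missed it on TPM, at 186 and 126.

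Markers of oligodendrocytes and their precursors were summed in each library. The 6 oligodendrocyte markers, from Mbp to Cldn11, were all 6 lower by the rule and summed to 14252 TPM in WT and 7284 TPM in cKO, with none at 0. The 4 precursor markers summed to 312 TPM and 296 TPM, with 0 past the rule and a median log2 ratio of -0.11. These sums stand beside the ratios of Mag, Mog and Opalin, and their part in the difference was not tested.

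Mag encodes a pair of proteins that differ only at the inner end. The small form, S-MAG, uses an extra exon with a stop codon, and the large form, L-MAG, skips it and reads on into the last exon. In the GENCODE M21 annotation of GRCm38 the extra exon spans 45 bases (chr7:30900352-30900396) and adds 30 coding bases before its TGA stop. The last exon holds 165 coding bases of L-MAG. The sequences below, taken from the GENCODE M21 transcripts and written 5′ to 3′ on the minus strand, show where the forms part. Lower case marks 24 bases of the exon they share (chr7:30900638-30900661), and capitals mark the 33 bases that follow, which come from chr7:30900364-30900396 in Mag-203 and from chr7:30899666-30899698 in Mag-207.
S-MAG (Mag-203): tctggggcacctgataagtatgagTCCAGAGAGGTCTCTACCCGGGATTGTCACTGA
L-MAG (Mag-207): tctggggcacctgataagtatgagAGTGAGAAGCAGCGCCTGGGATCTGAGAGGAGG

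Both forms of Mag were lower in cKO, L-MAG by slightly more. Transcripts with the S-MAG exon (Mag-201 and Mag-203, both of 582 coding residues) held 13340 counts in WT and 11413 in cKO, a log2 ratio of -0.59 (interval -0.64 to -0.54). Transcripts that skip it (Mag-207, of 627 residues, and Mag-204, whose coding part is incomplete in the annotation) held 13674 and 10659 counts, a log2 ratio of -0.72 (interval -0.77 to -0.67). The S-MAG share of all Mag counts was 43.8% for WT (Wilson interval 43.0% to 44.6%) and 45.6% for cKO (44.8% to 46.5%), a difference of 1.81 percentage points. The L-MAG share was 44.9% and 42.6%, a difference of -2.30 points. Counts with the exon stood to counts without it as 0.976 to 1 in WT and 1.07 to 1 in cKO. These counts are not corrected for transcript length. On TPM the S-MAG share was 31.3% in WT and 32.7% in cKO. The L-MAG share on TPM was larger in both libraries, at 40.6% in WT and 38.8% in cKO. By single transcript, Mag-203 made up 42.5% of Mag in WT and 44.3% in cKO, Mag-207 held 24.9% and 23.1%, and Mag-204 held 20.0% and 19.5%. The remaining Mag transcripts include Mag-205, a short partial model with 9.66% and 9.70% of counts, but 26.5% and 26.7% of TPM. The last exon of Mag-203 also runs 355 bases beyond that of Mag-207 in the annotation, so the forms differ in more than the coding exon, and the division between them is the authors' estimate.

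The promoters of the 3 surface genes are shown because these are the 3 of the 10 genes that were lower by the rule. The sequences are RefSeq's for GRCm38.p6, each the 250 bases before the RefSeq start nearest to that of the main transcript, written 5′ to 3′ on the minus strand, which all 3 genes share. Capitals mark matches, on either strand, to a Sox core (ACAAAG or ACAATG) or a core bound by Myrf (CTGGCAC or CTGGTAC), and no match shown overlaps another. Myrf and Sox10 are transcription factors of myelin genes.
Mag (chr7:30914864-30915113): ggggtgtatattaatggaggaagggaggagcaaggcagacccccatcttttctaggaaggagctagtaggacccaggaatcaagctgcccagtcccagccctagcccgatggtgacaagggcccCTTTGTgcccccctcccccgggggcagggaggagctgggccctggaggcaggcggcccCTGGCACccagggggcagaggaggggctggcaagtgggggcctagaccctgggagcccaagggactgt
Mog (chr17:37023399-37023648): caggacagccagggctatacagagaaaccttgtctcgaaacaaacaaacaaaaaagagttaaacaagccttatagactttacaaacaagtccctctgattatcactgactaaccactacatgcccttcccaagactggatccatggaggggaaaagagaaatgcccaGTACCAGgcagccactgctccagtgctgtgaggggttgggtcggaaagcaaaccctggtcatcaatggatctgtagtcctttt
Opalin (chr19:41077114-41077363): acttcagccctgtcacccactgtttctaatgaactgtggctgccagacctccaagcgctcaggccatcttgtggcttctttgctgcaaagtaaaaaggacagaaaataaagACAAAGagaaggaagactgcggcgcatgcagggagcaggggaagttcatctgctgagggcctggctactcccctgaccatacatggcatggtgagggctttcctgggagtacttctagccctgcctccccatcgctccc

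Matches were counted over the whole RefSeq window of 300 bases, which runs from 250 before to 50 after the start. A Myrf core was found in the windows of Mag, Mog and Opalin, 1 in each, and that of Opalin lies after the start, outside the stretch shown. The window of Mag also held 1 Sox core and that of Opalin 2, of which 1 lies in the stretch shown, while that of Mog held 0. Over all 32544 windows of this length, 7.11% held a Myrf core and 28.4% a Sox core. The windows of Rtn4, Rtn4r, Rtn4rl2, Lingo1, Tnfrsf19 and Ngfr held 0 matches to either. For Tnfrsf19 the nearest RefSeq start lies at -386 bases from the start of its main transcript, which its window does not cover. Those of Rtn4r, Rtn4rl2, Lingo1 and Ngfr were richer in G and C, at 78%, 74%, 72.7% and 71.7% against a median of 53% over all windows, and held 47, 35, 32 and 23 CpG dinucleotides against a median of 7. Mag (65%, 6 CpG), Mog (48.3%, 3 CpG) and Opalin (54.3%, 4 CpG) had fewer CpG than that median, and Rtn4 (62.3%, 15 CpG) and Tnfrsf19 (51%, 14 CpG) had more. In G and C, Mog and Tnfrsf19 lay below the median of 53%, and Mag, Opalin and Rtn4 above it. Of the 10 genes 9 had an entry, Rtn4rl1 being the exception. A match is a description of letters and not a binding site. The gene Myrf itself had 219 CPM (WT) and 148 CPM (cKO; log2 ratio -0.56, short of the 1.5-fold limit).

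Rtn4, the Nogo gene, was the only ligand gene among the 10 outside the surface group, and was lower by less than the rule asks. It lies on the plus strand of chromosome 11, from 29692947 to 29744331 (ENSMUSG00000020458). Rtn4 had 22946 counts in WT and 21798 in cKO, or 535 and 395 CPM. The log2 ratio was -0.44 (interval -0.47 to -0.40), 1.35-fold lower in cKO, and 6.77% of measured genes had a lower ratio. This was 0.37 above the median of the mature oligodendrocyte list on the log2 scale. Neurons as well as oligodendrocytes are known to express Rtn4. In the plot of all measured genes, Rtn4 lies between the surface genes and the receptors.

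**Figure D3:**
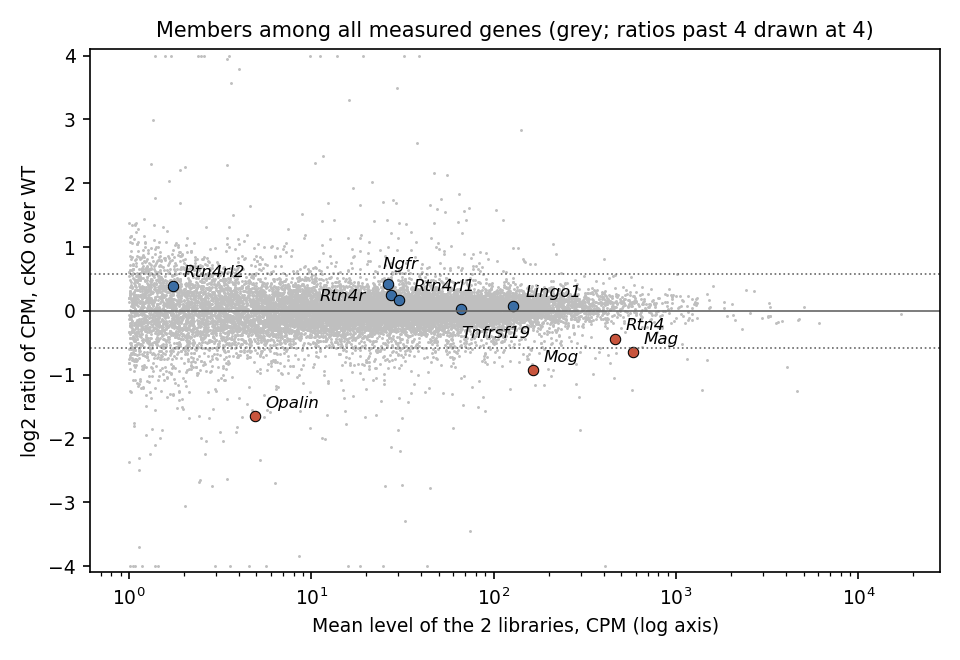
The log2 ratio of CPM in cKO over WT is plotted against the mean CPM of both libraries on a logarithmic x axis, for all measured genes (grey) and for the 10 genes, with surface proteins and ligand in red and receptors and co-receptors in blue. Mag, Mog and Opalin lie below the lower dotted line of 1.5-fold, Rtn4 lies just above it, and the 6 receptor and co-receptor genes lie within the grey band.

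Rtn4 makes proteins of very different length from alternative starts and a long alternative exon. Nogo-A carries the long exon of 2361 bases (chr11:29706410-29708770), which encodes its growth-inhibiting middle part. Nogo-B has the same first exon but skips the long one, and Nogo-C starts from an exon of its own. All forms share the exon that begins at chr11:29733633 and encodes the start of the membrane-bound reticulon domain. The sequences below are from the GENCODE M21 transcripts (GRCm38, plus strand, 5′ to 3′) and show how each form joins it. Capitals mark the 24 bases before the join, from chr11:29708747-29708770 for Nogo-A, chr11:29693670-29693693 for Nogo-B, chr11:29705568-29705591 for Nogo-B with a cassette exon of 57 bases and chr11:29718859-29718882 for Nogo-C. The capital bases of both Nogo-B entries are also exon of Rtn4-205 (Nogo-A). Only the join, and not these bases, is therefore particular to Nogo-B. Lower case marks the 24 shared bases (chr11:29733633-29733656).
Nogo-A (Rtn4-205): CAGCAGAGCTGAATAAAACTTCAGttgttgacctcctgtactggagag
Nogo-B (Rtn4-202): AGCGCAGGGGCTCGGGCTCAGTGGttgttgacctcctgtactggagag
Nogo-B with the cassette exon (Rtn4-204): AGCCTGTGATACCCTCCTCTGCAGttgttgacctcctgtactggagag
Nogo-C (Rtn4-201): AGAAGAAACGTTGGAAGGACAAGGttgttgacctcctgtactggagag

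Nogo-A made up most Rtn4 counts in both libraries. Its transcripts (Rtn4-205, of 1162 residues, and Rtn4-203) held 20647 counts in WT and 21309 in cKO, a log2 ratio of -0.32 (interval -0.36 to -0.28). Its share of Rtn4 was 90.0% for WT (Wilson interval 89.4% to 90.5%) and 97.8% for cKO (97.5% to 98.0%). On TPM the Nogo-A share was 85.4% in WT and 93.4% in cKO, and the Nogo-B share 12.9% and 3.75%. Nogo-C (Rtn4-201, 199 residues), a form known mainly from muscle, had 50 and 61 counts, with a log2 ratio of -0.08 (interval -0.89 to 0.75).

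Transcripts of Nogo-B were estimated far lower in the cKO library. Rtn4-202 and Rtn4-210 (356 residues) and Rtn4-204 (375 residues) together had 2192 counts in WT and 338 in cKO, or 9.55% (Wilson interval 9.03% to 10.1%) and 1.55% (1.34% to 1.80%) of the gene. The log2 ratio was -3.06 (interval -3.30 to -2.82), 8.34-fold lower. This rested on a single transcript, Rtn4-202, which went from 1789 counts to 50. Rtn4-204 went from 403 to 159, and Rtn4-210 from 0 to 129. Without Rtn4-202, a comparison added after these values were seen, Nogo-B had 403 counts in WT and 288 in cKO, a log2 ratio of -0.85 (interval -1.17 to -0.53) and shares of 1.76% and 1.32%. The ratio of the whole Rtn4 gene was then -0.32.

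The annotation sets Rtn4-202 apart from the other Rtn4 transcripts. Its last exon is 2345 bases long against 930 in Rtn4-204 and Rtn4-205, and the extra 1415 bases (chr11:29742917-29744331) belong to no other Rtn4 transcript. Of these, 1284 bases (chr11:29743048-29744331) are also exon of Eml6, a gene on the opposite strand, and no other Rtn4 transcript shares exon bases with Eml6. For Eml6-201, the main transcript of that gene, 1540 counts were listed in WT and 2522 in cKO. The strand setting of the counting is not given in the sources used here, so reads from that stretch cannot be assigned to either gene, and their part in the estimate for Rtn4-202 was not tested. No other gene among the 10 shares exons with another gene on either strand in this annotation.

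Shifts of transcript shares were common in these libraries. Over 21162 transcripts that held at least 5% of a gene with at least 10 CPM and several transcripts, the share differed by 5 percentage points or more in 36.8%. Among the 11 such transcripts, which come from 5 of the 10 genes, 2 did so, a share below this background. They were Rtn4-202, whose share fell, and Rtn4-205, whose share rose. Both are shares of the same gene and so are not independent. A share that fell as far as that of Rtn4-202 was found in 13.0% of transcripts. Relative to its gene, however, the log2 ratio of Rtn4-202 was -5.09, and among 8663 transcripts with at least 1000 counts in a library, 67 (0.773%) were as low or lower.

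**Figure D4:**
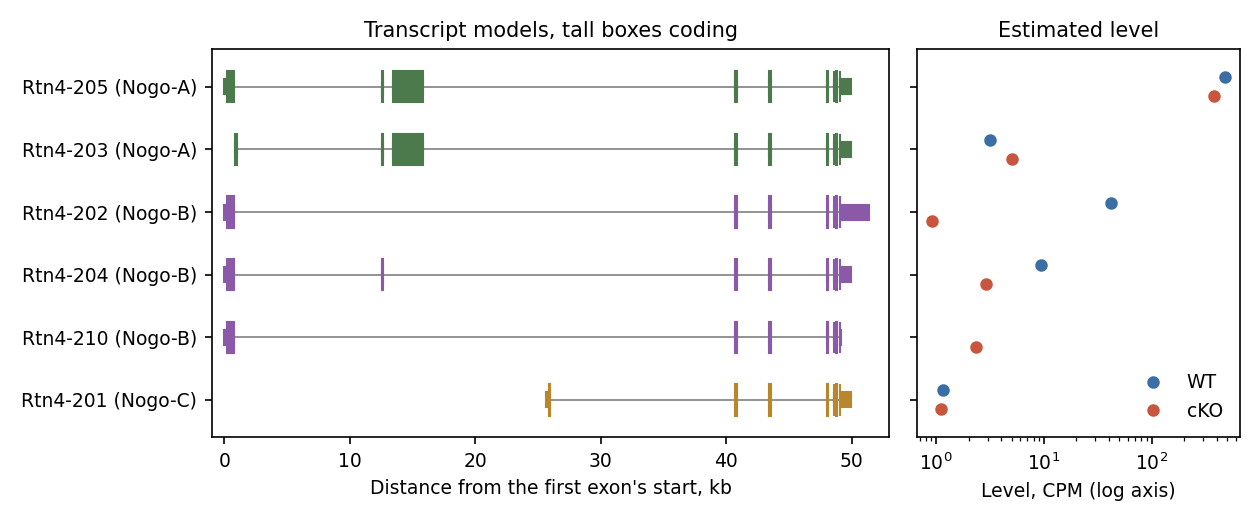
The left panel draws the models of 6 Rtn4 transcripts by distance in kb from the first exon's start, with tall boxes for coding parts and colour for Nogo-A (green), Nogo-B (purple) and Nogo-C (yellow). The right panel gives each transcript's CPM on a logarithmic axis in WT (blue) and cKO (red), where Rtn4-202, the model with the longest last exon, has the widest gap and Rtn4-210 has no WT point because it was at 0 counts there.

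Ligands and antagonists outside the 10 genes held no member past the rule. Of 9 such genes, 0 were lower and 0 higher by the rule, against 3.42% and 2.46% of all measured genes, and the median log2 ratio was -0.01. At those shares a list this short can hold none without differing from all genes. Omg, oligodendrocyte myelin glycoprotein and the remaining myelin ligand of the Nogo receptor, had 101 CPM (WT) and 88.6 CPM (cKO), and its log2 ratio was -0.19 (interval -0.28 to -0.11). Its ratio was closer to 0 than those of Mag and Rtn4. The most abundant others by TPM were Olfm1 (0.12), a secreted protein that binds the Nogo receptor, and the proteoglycan genes Bcan (-0.21) and Ncan (-0.01). Lgi1, which encodes a secreted ligand, had a ratio of 0.51 (interval 0.37 to 0.66) and was past 1.5-fold on TPM, at 14.6 in WT and 32.8 in cKO. Enzymes that make the gangliosides bound by Mag had a median of 0.14, with 0 of 8 past the rule.

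The 3 Nogo receptor genes were at or slightly above their WT level in cKO. Rtn4r (ENSMUSG00000043811, chromosome 16, plus strand, 18127642 to 18152408) encodes the receptor that binds Nogo, Mag and Omg. It had 1066 counts in WT and 1636 in cKO, or 24.8 and 29.7 CPM, a log2 ratio of 0.26 (interval 0.10 to 0.42). Rtn4rl1, also called NgR3 (ENSMUSG00000045287, chromosome 11, plus strand, 75193783 to 75267769), had 1217 and 1764 counts, or 28.4 and 32.0 CPM, a ratio of 0.17 (0.02 to 0.32). These 2 intervals lie above 0, but both ratios were below the 1.5-fold limit, and 87.0% and 78.4% of measured genes had a lower ratio. Rtn4rl2, also called NgR2 and a receptor for Mag (ENSMUSG00000050896, chromosome 2, minus strand, 84871924 to 84886710), had 65 and 110 counts, or 1.52 and 1.99 CPM. Its ratio of 0.40 had an interval of -0.25 to 1.07, so no difference was detectable at this depth. Rtn4r and Rtn4rl1 are listed with a single transcript each. Of Rtn4rl2, Rtn4rl2-201 made up 75.4% in WT and 71.8% in cKO, and Rtn4rl2-203 held 18.5% and 27.3%, with Wilson intervals that overlapped (8.75% to 34.8% and 17.3% to 40.2%).

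The co-receptors included the most nearly equal gene of the 10 and the one of highest ratio. Tnfrsf19 (ENSMUSG00000060548, chromosome 14, minus strand, 60963834 to 61046855) had 2828 counts in WT and 3700 in cKO, or 65.9 and 67.1 CPM, a log2 ratio of 0.03 (interval -0.08 to 0.13). Transcript Tnfrsf19-201 held 78.4% and 74.4% of its counts and Tnfrsf19-202 held 21.6% and 25.6%, both with 416 coding residues. Lingo1 (ENSMUSG00000049556, chromosome 9, minus strand, 56618475 to 56796468) had 5337 and 7268 counts, or 124 and 132 CPM, a ratio of 0.08 (0.01 to 0.16). Its main transcript Lingo1-203, of 620 residues, held 84.4% and 83.0%. Lingo1 is known as a brake on oligodendrocyte differentiation as well as a partner of the Nogo receptor, and its interval lies within 1.5-fold of equality, as does that of Tnfrsf19.

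Ngfr had the highest ratio of the 10 genes. The gene (ENSMUSG00000000120) lies on the minus strand of chromosome 11, from 95568818 to 95587735, and encodes p75, which binds neurotrophins as well as joining the Nogo receptor. Ngfr had 970 counts in WT and 1674 in cKO, or 22.6 and 30.4 CPM, a log2 ratio of 0.43 (interval 0.26 to 0.59) that is 1.34-fold higher in cKO and short of the limit. A lower ratio was found for 94.6% of measured genes.

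Markers of cells that can express the receptors were also measured. All 14 neuron markers had ratios above 0, with a median of 0.21 and 0 past the rule, and summed to 6713 TPM in WT and 7834 TPM in cKO, with none at 0. For comparison, 47.7% of all measured genes had ratios below 0. Of 11 Schwann cell markers, 6 lay above 0, with a median of 0.12, and their sum was 1243 TPM and 1413 TPM. Among them Drp2 was lower by the rule at -0.81, though not on TPM, at 22.0 and 16.0. Motor neuron markers had a median of 0.03, with 1 of 8 higher by the rule, Isl2 (0.65), and 0 lower, and endothelial and pericyte markers had one of 0.13, with 0 of 9 past the rule. Astrocyte markers had a median of -0.05 and microglial markers of -0.03, with 0 of 8 past the rule in each. Of 5 red blood cell genes 1 was higher by the rule, Hbb-bt (0.60), and their median was 0.55. The part of these levels in the receptor ratios was not tested.

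The median ratio of other receptors and partners of the system was near equality, with single genes on both sides of it. Of 11 measured genes, 1 was lower and 0 higher by the rule, with a median of 0.13. The lower gene was Nradd, a relative of Ngfr with a death domain, which went from 191 to 138 counts (log2 ratio -0.83, interval -1.30 to -0.37), and on TPM, at 8.46 and 5.85, it missed the limit. Pirb had the highest ratio of the list, at 0.76, with an interval of -0.03 to 1.59 on 41 and 89 counts. S1pr2 was at -0.50 (interval -0.77 to -0.23), short of the limit. Tspan3 (0.00), Itgb1 (-0.22) and Lrp1 (0.29) were the most abundant others. Lrp1 was past 1.5-fold on TPM, at 87.4 in WT and 151 in cKO. Of 13 measured neurotrophin and Ngfr-related genes, 1 was higher and 0 lower, with a median of 0.10. That gene was Adam17, a protease that sheds the outer part of p75, with 1023 counts in WT and 2042 in cKO (0.63, interval 0.48 to 0.79). Maged1 and Bex3, which encode partners of p75, were at 0.14 and 0.10.

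Downstream genes and relatives of the 10 showed no member past the rule, which 3.42% (lower) and 2.46% (higher) of all measured genes met. At those shares a list this short can hold none without differing from all genes. Of 19 genes of RhoA signalling and the growth cone, 0 were lower and 0 higher, with a median of -0.04 and a range from -0.52 to 0.51. Cfl1, which encodes the actin-severing protein cofilin, was at -0.04, Gap43, a growth cone protein, at 0.08, and the RhoA inhibitor gene Arhgdia at -0.07. Of 14 measured family relatives, 0 were past the rule, with a median of 0.05. Tnfrsf1a, a receptor for tumour necrosis factor, was at -0.17 but past 1.5-fold on TPM, at 47.9 in WT and 28.5 in cKO. The reticulon genes Rtn1 (0.16), Rtn2 (0.18) and Rtn3 (0.08) had ratios above 0, where that of Rtn4 was below it, and Lingo2, Lingo3 and Lingo4 stood at 0.14, 0.08 and 0.21.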

How the data were processed

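Trizol extraction and a VAHTS mRNA-seq V2 kit were used, per the labels' protocols. Among tools and builds, CASAVA, Bowtie2 2.3.2 and GRCm38.p6 are named, per the submitters' processing notes. How counts were made, on which annotation release and with which strand setting, was not given in the sources used here. Per the file headers, the authors deposited estimated counts, TPM and FPKM per gene and transcript, with 1 column per library (42875143 and 55179026 counts). Of transcripts under 50 counts, 98.9% in WT and 98.8% in cKO held a fixed multiple of FPKM times length rounded up, within 0.1. For low single-transcript genes that product gathered below even numbers (36.7% and 33.4%, against 11.3% and 12.1% below odd ones), so 1 fragment was taken as 2 counts. This was a choice made after the values were seen.

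Counts were divided by library totals scaled with TMM factors (edgeR 4.0.16, R 4.3.3). Measured genes had a mean of at least 1 CPM. No pseudocount was used, and a count of 0 in a ratio was set to 3 fragments. Intervals (95%, scipy 1.17.1, Python 3.11.15, pandas 2.3.3, numpy 2.4.6, figures by matplotlib 3.10.9) were Clopper-Pearson for ratios, Wilson for shares and exact Poisson for TPM. Neither PCR duplication nor differences between animals is covered by them, only counting error. No test was run. The ratio calculation was tested on simulated data.

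The 10 genes, the gene lists and the rules were chosen with earlier results of these data known. The naming rule took all 10 genes, their transcripts with at least 10% of a gene's counts (5% for named protein forms), and up to 4 members of each list, those past the 1.5-fold rule first and then the most abundant. Myrf, Omg, Olig1, Lgi1, Tnfrsf1a, Eml6, Pirb, S1pr2, Rtn2 and the Lingo relatives fall outside that rule and were named after their values were seen. Of the 17 genes of the neurotrophin list, 1 (Ngfrap1, an older symbol of Bex3) was not found. All 37 transcripts matched GENCODE M21 by identifier, which lists 41 for these genes. Alternatives were DESeq2 1.42.0 size factors, upper quartile and unscaled totals, the authors' TPM and FPKM with pseudocounts, and other filters, fold limits and interval bases.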

Additional observations from a re-analysis of the deposited data

How the results depend on the processing

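The log2 ratios of all 10 genes kept their sign under 6 other scalings or units, that is DESeq2 size factors, upper quartile scaling, unscaled totals, TPM with a pseudocount of 0.1 or 1, and FPKM with a pseudocount of 0.1. The median of all genes moved by at most 0.04 on the log2 scale. Mag, Mog and Opalin remained past the rule under these 6. At a fold limit of 2, only Opalin (1 of 10) was lower, and at the one smaller fold limit tried 4 of 10 were lower, with Rtn4 (-0.44) added, and 1, Ngfr, was higher. Over all measured genes, 544 were lower and 392 higher. With TPM and a pseudocount of 1, 338 were lower. Without a filter 831 were lower and 659 higher, with a filter of 5 CPM 306 and 190, at a fold limit of 2 183 and 130, and at the smaller fold limit 1248 and 992. The filter of 5 CPM also removed Opalin and Rtn4rl2, which left 2 lower genes among the 10. The change in the Nogo-B share of Rtn4, -8.00 percentage points of counts, was -9.1 points of TPM and -0.435 points without Rtn4-202, a comparison added after seeing the data. Without that transcript the Rtn4 ratio was -0.32. The order of the 10 genes by FPKM was that by TPM in both libraries. No replicate could be left out, since each group has 1 library. No paired analysis was possible because the groups share only 1 replicate number and no test was run. Summing genes that share exons on the same strand was not run, since none of the 10 genes has such a partner. Depth limits Rtn4rl2 most, on 65 and 110 counts.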

Other observations

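Meningeal and fibroblast markers had log2 ratios below 0 in 8 of 8 cases, against 47.7% of all measured genes, with a median of -0.26. By the 1.5-fold rule 2 were lower, the growth factor gene Igf2 (-1.87) and the small proteoglycan gene Ogn (-0.60), and Ogn missed the limit on TPM, at 48.5 and 32.9. Of 6 ependymal markers 1 was lower, Mia (-0.96, on 157 and 104 counts), and the median was -0.11.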
